A study of Mus musculus with 2 samples.

Results

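The miR-29 family of the mouse is made by 4 genes in 2 clusters, Mir29a and Mir29b-1 on chromosome 6 and Mir29b-2 and Mir29c on chromosome 1. These 4 genes were picked by name among the 2202 microRNA (miRNA) genes that were counted. None of their values was used to pick them, but earlier results of these data were known when they were chosen. Small RNA was sequenced from hippocampal tissue of 2-month-old B6CASTF1/J females, hybrids of the C57BL/6J laboratory strain and a castaneus-derived strain. The labels record an unnamed layer of hippocampus, no treatment and no altered gene. The series holds 1 group with biological replicates 2 and 1, which have separate tissue records and a common donor record. Whether they came from different animals is not stated, so differences between the libraries may be technical, and the p-values below set them against counting error only. The comparisons that the design allows are between the libraries and, within a library, between the clusters and between the gene copies. Because a single age was sampled, the rise of the family during brain maturation that is known from other work could not be examined.

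A miRNA is cut from a hairpin, and the arm kept by an Argonaute protein silences mRNAs that pair with its seed, bases 2 to 8 from its 5′ end. For the miR-29 hairpins that arm is mainly the 3p one. The family is known for repressing collagens and other matrix genes, the DNA methyltransferases of the Dnmt3 group and TET enzymes. In the mouse brain it rises strongly after birth, is associated with astrocytes as well as neurons, and in maturing neurons miR-29b restrains cell death by repressing BH3-only genes.

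The mature 3p sequences are shown first because they fix what the counts can tell apart. They are RNA, written 5′ to 3′, from RefSeq on GRCm38.p6, the build that mm10 names, with the seed in capitals.
mmu-miR-29a-3p: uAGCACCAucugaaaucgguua
mmu-miR-29b-3p: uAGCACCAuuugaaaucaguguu
mmu-miR-29c-3p: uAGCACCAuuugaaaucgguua
All 4 genes carry the seed AGCACCA, and no other gene among the 1738 mature entries of that table has it at bases 2 to 8. The 3p miRNAs of Mir29a and Mir29c, both 22 bases long, differ by the single substitution C10U, counted from the 5′ end with the Mir29a base first. Mir29b-1 and Mir29b-2 encode the same 23 bases, so a read of miR-29b-3p cannot be given to either copy. Between miR-29b-3p and miR-29c-3p the first 17 bases are identical, and the substitutions A18G, G21U and U22A follow. In human cell lines, uracils in the middle of miR-29b and miR-29c, where miR-29a has a cytosine, have been tied to faster decay, and the last bases of miR-29b to its import into the nucleus. Neither property was measured here.

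The hairpins show where the copies differ, with both mature arms in capitals.
Mir29a: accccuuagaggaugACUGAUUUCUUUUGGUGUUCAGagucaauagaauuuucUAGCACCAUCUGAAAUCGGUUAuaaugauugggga
Mir29b-1: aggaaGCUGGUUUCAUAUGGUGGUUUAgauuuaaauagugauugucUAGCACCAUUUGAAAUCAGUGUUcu
Mir29b-2: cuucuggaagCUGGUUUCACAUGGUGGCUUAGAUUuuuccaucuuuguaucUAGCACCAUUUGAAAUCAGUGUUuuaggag
Mir29c: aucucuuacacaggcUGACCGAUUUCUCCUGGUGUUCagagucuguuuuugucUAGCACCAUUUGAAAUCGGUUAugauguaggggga
Mir29a (ENSMUSG00000065610.1, chr6:31062660-31062747, minus strand) and Mir29b-1 (ENSMUSG00000065604.2, chr6:31063023-31063093, minus strand) lie 275 bases apart. Mir29a overlaps no other gene of the GENCODE M21 annotation, and Mir29b-1 overlaps an exon of the long non-coding gene Gm27019 by 2 bases. Mir29b-2 (ENSMUSG00000065412.3, chr1:195037040-195037120, plus strand) and Mir29c (ENSMUSG00000065548.1, chr1:195037547-195037634, plus strand) lie 426 bases apart. Both chromosome 1 hairpins lie wholly in exonic sequence of the non-coding transcript A330023F24Rik, and on the opposite strand within exonic sequence of Cd46, a complement regulator. Reads from the antisense strand were 0 at all 4 genes in both libraries, and the counts without regard to strand equalled the sense counts.

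The longest stretch that the Mir29b hairpins share is 25 bases, from 2 bases before the 3p miRNA to its end. Mir29b-1 also shares 22 bases with Mir29c and Mir29b-2 shares 19, both ending inside the 3p miRNA. The full miR-29c-3p is found in no other annotated hairpin, but a read from its 5′ end needs 18 bases to become particular to Mir29c. Such a read of miR-29a-3p needs 10 bases, and Mir29a shares no more than 14 bases with any other miRNA gene. The 5p arms of all 4 genes differ from each other. Multimapping reads were given to no gene, and their share of all reads was 48.4% in replicate 2 against 45.9% in replicate 1. The counts of both Mir29b genes therefore leave out reads that match both copies, and the count of Mir29c leaves out short reads that end within the shared stretch. How many reads this concerns cannot be read from the tables.

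**Figure D1:**
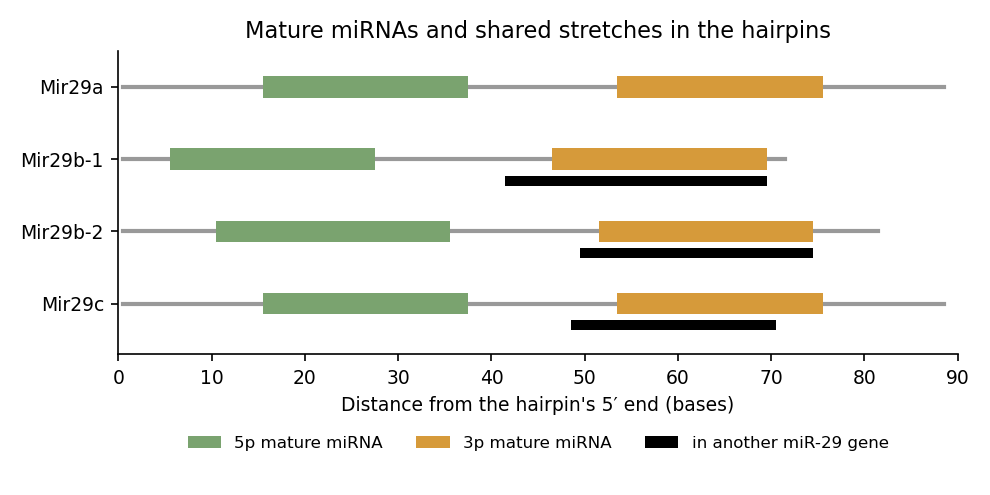
The 4 miR-29 hairpins drawn to scale in bases from the 5′ end, with the 5p and 3p mature miRNAs as coloured blocks and, as black bars, bases lying in a stretch of 18 or more bases that another annotated miRNA gene also holds. The black bars cover the whole 3p miRNA of both Mir29b genes and 17 of its 22 bases in Mir29c, and Mir29a has none.

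Mir29a gave 86.8% of the family's counts in replicate 2 and 91.6% in replicate 1, and Mir29c gave 12.4% in replicate 2 and 7.52% in replicate 1, among reads that were given to a gene. Together the 4 genes held 1.78% of the sense counts on miRNA genes in replicate 2 (106584 of 5979247, 95% Wilson interval 1.772 to 1.793) and 1.61% in replicate 1 (72814 of 4517648, 1.600 to 1.623). Levels are expressed in CPM, a gene's sense counts per 1000000 such counts over all miRNA genes. The intervals cover no more than counting error, because they hold no spread between libraries. Reads copied by PCR do not stand for separate molecules, which can make the intervals too narrow. All 4 genes passed the minimum of 10 counts in both libraries.

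Mir29a had 92540 counts in replicate 2 and 66705 in replicate 1, or 15477 and 14765 CPM. At 15121 ± 503 CPM (SD, n = 2) it ranked 13 of all 2202 genes, of which 774 had a count in either library. The ranks rest on reads given to a single gene, so miRNAs with several gene copies can rank too low. The closest gene in level over both libraries was Mir191, with 13881 CPM in replicate 2 against 11789 CPM in replicate 1, followed by Mir125a with 17636 CPM in replicate 2 against 19005 CPM in replicate 1. Likeness here is distance on the log2(CPM + 0.5) scale over 2 libraries and says nothing more than that the levels are near each other.

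Mir29c had 13215 counts in replicate 2 and 5475 in replicate 1, or 2210 and 1212 CPM, and ranked 72. Its libraries stood far apart, with a mean of 1711 ± 706 CPM (SD, n = 2). Nearest to it in level were Mir872, with 1663 and 1352 CPM in replicates 2 and 1, and Mir342, with 2488 and 1628 CPM in replicates 2 and 1.

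The counts given to the copies of miR-29b were far lower. They leave out reads that match both copies, full reads of miR-29b-3p among them, and so do not give the level of that miRNA. Mir29b-2 had 500 counts in replicate 2 and 311 in replicate 1, or 83.6 and 68.8 CPM, and ranked 214. Mir29b-1 had 329 counts in replicate 2 and 323 in replicate 1, or 55.0 and 71.5 CPM, and ranked 225. The order of the copies was clear only in replicate 2, with Mir29b-2 above Mir29b-1, and the intervals overlapped in replicate 1. Mir29b-2 lay nearest to Mir24-2 and Mir210 in level, and Mir29b-1 nearest to Mir344b and Mir130b.

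**Figure D2:**
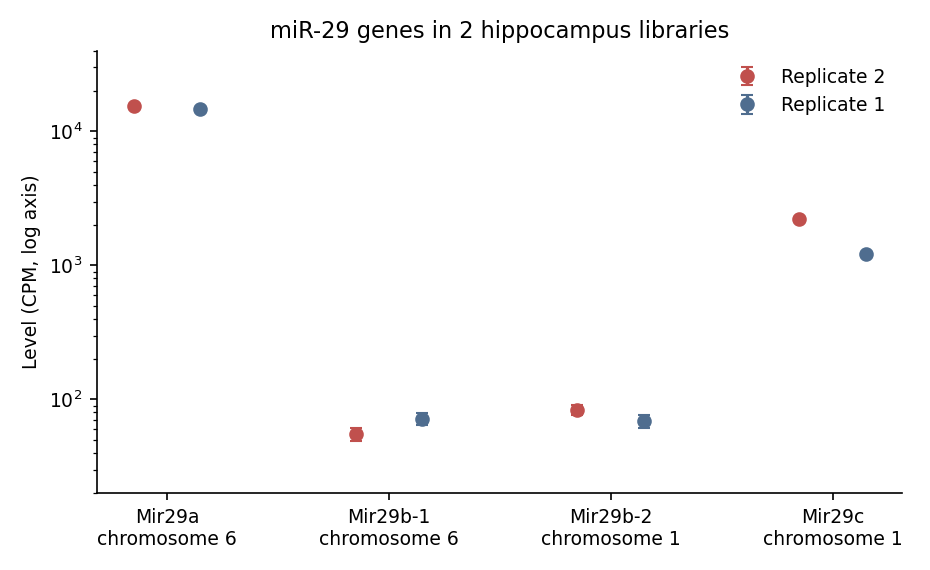
Level of each miR-29 gene in CPM on a log axis in replicate 2 and replicate 1, with 95% Wilson intervals that are mostly smaller than the points. Mir29a sits at 15477 and 14765 CPM and Mir29c at 2210 and 1212 CPM, while both Mir29b genes lie below 100 CPM. The Mir29b values leave out reads that match both copies.

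The hairpins differ in annotated length, from 71 bases for Mir29b-1 and 81 for Mir29b-2 to 88 for Mir29a and Mir29c. Levels were therefore also set side by side per 100 hairpin bases, although a miRNA read covers a mature arm and not the hairpin. On that scale Mir29a stood at 17183 ± 572 CPM, Mir29c at 1944 ± 802 CPM, Mir29b-2 at 94.1 ± 12.9 CPM and Mir29b-1 at 89.1 ± 16.4 CPM per 100 bases (SD, n = 2 each). The order Mir29a, Mir29c and then the Mir29b genes held in both libraries, in counts that lack reads matching both Mir29b copies. The Mir29b genes differed from each other by less than the SD between libraries.

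The clusters were unequal in reads given to a gene, and more so in replicate 1. Reads that match both Mir29b copies, 1 in each cluster, are left out, so the split is mainly that of Mir29a against Mir29c. Short reads of Mir29c that end within its shared stretch are left out too. The shares are therefore not the full output of the clusters. Chromosome 6 gave 92869 of 106584 family counts in replicate 2, 87.1% (95% Clopper-Pearson interval 86.93 to 87.33). It gave 67028 of 72814 in replicate 1, 92.1% (91.85 to 92.25). The share was lower by 4.92 percentage points in replicate 2, a difference beyond counting error by Fisher's exact test, two-sided (p = 3.3e-245, 6.5e-245 adjusted over the 2 such tests made). The chromosome 6 cluster had 6.77 times the counts of chromosome 1 in replicate 2 and 11.6 times in replicate 1. The chromosome 6 cluster held 15532 CPM in replicate 2 against 14837 CPM in replicate 1, and the chromosome 1 cluster 2294 CPM in replicate 2 against 1281 CPM in replicate 1.

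Between the copies, the split differed between the libraries while the sum stood nearly still. Mir29b-1 made up 329 of 829 Mir29b counts in replicate 2, 39.7% (95% Clopper-Pearson interval 36.3 to 43.1). In replicate 1 it made up 323 of 634, 50.9% (47.0 to 54.9). The difference of -11.3 percentage points passed Fisher's exact test, two-sided (p = 2.1e-05, also after adjustment over the 2 tests). Both copies together had 138.6 CPM in replicate 2 and 140.3 CPM in replicate 1. The log2 ratio of this sum was -0.02 (95% exact interval -0.17 to 0.13). The sum was formed after the values were seen. Since reads common to both copies are left out, these shares describe only reads particular to 1 copy, such as those of the 5p arms, and not the output of mature miR-29b-3p.

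**Figure D3:**
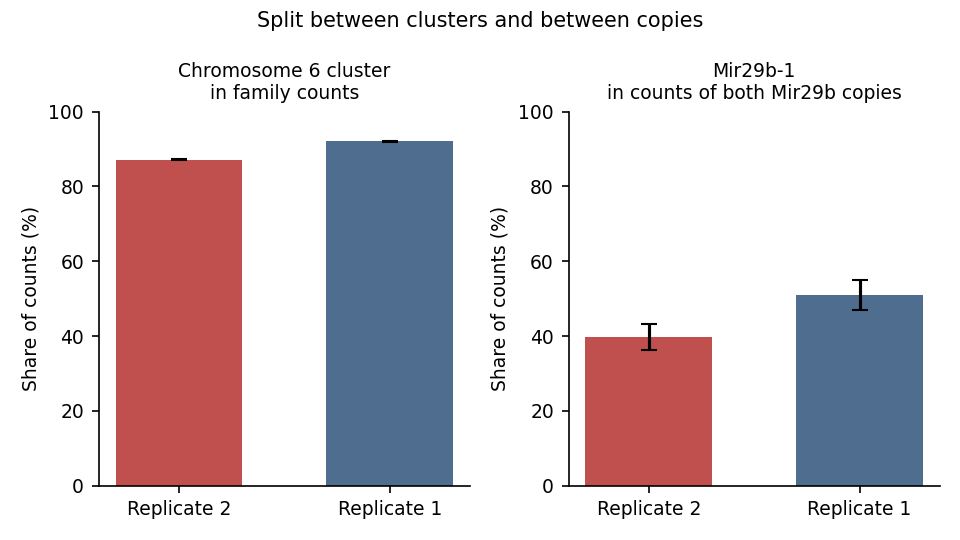
Share of counts in percent in replicate 2 and replicate 1, with 95% Clopper-Pearson intervals: on the left the chromosome 6 cluster in all family counts, on the right Mir29b-1 in the counts of both Mir29b genes. The left bars stand at 87.1% and 92.1%, and the right bars at 39.7% and 50.9%. Reads that match both Mir29b copies are left out of all bars.

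Within each cluster the 2 hairpins come from neighbouring stretches of sequence, yet their counts were far from equal. Mir29a had 281.3 times the counts of Mir29b-1 in replicate 2 and 206.5 times in replicate 1, or 226.9 and 166.6 times per hairpin base. The log2 ratio per gene was 7.91 ± 0.32 (SD, n = 2). Mir29c had 26.4 times the counts of Mir29b-2 in replicate 2 and 17.6 times in replicate 1, or 24.3 and 16.2 times per hairpin base. Here the log2 ratio per gene was 4.43 ± 0.41 (SD, n = 2). Both ratios were larger in replicate 2, and their 95% exact intervals did not overlap between the libraries (for Mir29a over Mir29b-1, log2 7.98 to 8.30 in replicate 2 and 7.53 to 7.85 in replicate 1). Mir29a over Mir29c, genes of equal hairpin length, had a log2 ratio of 2.81 in replicate 2 and 3.61 in replicate 1. In the ratios that hold a Mir29b gene, its counts lack the reads that match both copies. The Mir29c counts lack short reads that end within the stretch shared with the Mir29b genes.

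Other clusters in which a gene with a duplicated mature miRNA lies beside a partner were set next to the miR-29 clusters, on the scale of counts per hairpin base. Of 12 listed pairs, 9 had counts in both genes and both libraries. In 8 of the 9 the duplicated gene had fewer counts than its partner in both libraries, with a median log2 ratio of -5.46 over the 9 and a range from -8.95 for Mir24-1 over Mir23b to 1.32 for Mir194-2 over Mir192. Mir29b-1 over Mir29a, at -7.60, was lower than 8 of the 9, and Mir29b-2 over Mir29c, at -4.31, was higher than 5 of them. The miR-29 pairs thus lay inside the range of the other pairs, and no test was made of a difference from them. Because reads that match several genes were given to none, a duplicated gene can lose reads that its partner keeps. How far this lowers the ratios was not tested, and the ratios do not give the output of the genes. The pairs are also not all independent, since Mirlet7f-1 and Mirlet7a-1 share the partner Mirlet7d.

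**Figure D4:**
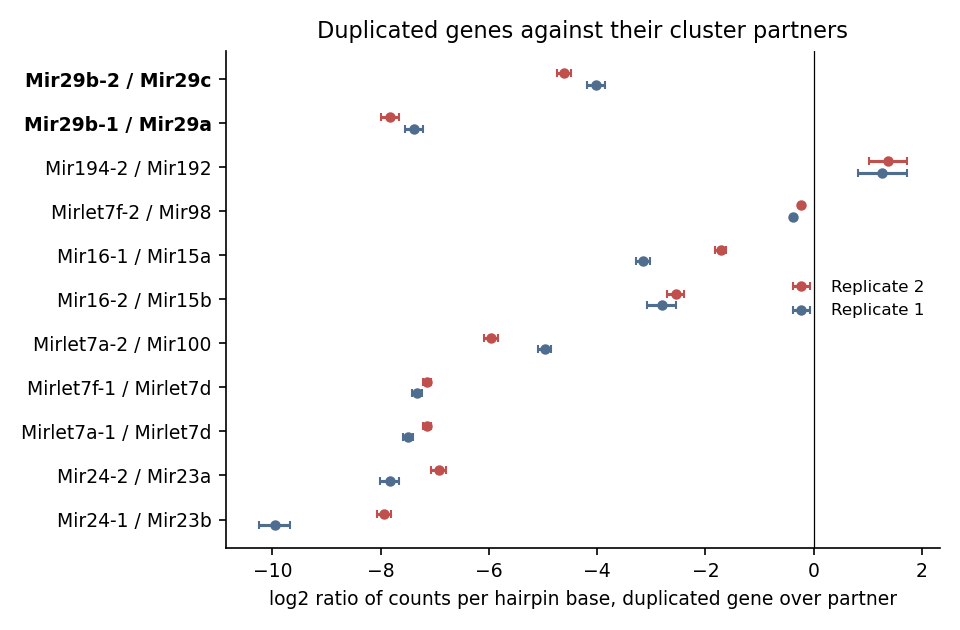
Log2 ratio of counts per hairpin base, duplicated gene over cluster partner, in replicate 2 and replicate 1 with 95% exact intervals, for both miR-29 pairs (bold) and 9 other pairs. Mir29b-1 over Mir29a (mean -7.60) and Mir29b-2 over Mir29c (mean -4.31) fall between Mir24-1 over Mir23b at -8.95 and Mir194-2 over Mir192 at 1.32. Reads that match several genes are left out, which can lower the duplicated genes.

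The libraries were then set against each other gene by gene, with ratios of replicate 2 over replicate 1 on the log2(CPM + 0.5) scale. Each gene's counts were held against the remaining miRNA counts by Fisher's exact test (two-sided), adjusted over the 420 genes tested after Benjamini and Hochberg. The test concerns the libraries alone, as there is no second condition. Of all genes tested 56.9% passed the threshold of 0.05, 27.1% as higher and 29.8% as lower in replicate 2. All 4 miR-29 genes passed, 3 as higher and 1 as lower, so passing by itself sets them little apart, and the sizes are what can be read. Over all genes tested the median difference in either direction was 1.23-fold, and the median log2 ratio was -0.07.

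Mir29c had the largest difference in the family, at a log2 ratio of 0.87 (95% exact interval 0.82 to 0.91), or 1.82-fold higher in replicate 2. Of the 420 genes, 54 differed by more. The 52 genes within 2-fold of its level had a median size of 0.27 on the log2 scale. Its p by Fisher's exact test was too small to be stored as a number and is held as 0. Mir29a, the member with the highest count, had the smallest difference, at 0.07 (0.05 to 0.08), or 1.05-fold higher in replicate 2. It passed with an adjusted p of 3.5e-20 by Fisher's exact test, while 368 of the 420 genes differed by more. Its ratio became 0.13 with the TMM factors of edgeR and 0.14 with the size factors of DESeq2.

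The Mir29b genes moved in opposite directions. Mir29b-2 was higher in replicate 2 by 0.28 on the log2 scale (95% exact interval 0.07 to 0.49, adjusted p = 0.014 by Fisher's exact test), or 1.21-fold. Mir29b-1 was lower in replicate 2, at -0.37 (-0.60 to -0.15, adjusted p = 0.0019 by Fisher's exact test), or 1.30-fold higher in replicate 1. Among genes within 2-fold of their levels the median size was 0.39 for both, which is more than either difference. Each cluster thus had its Mir29b gene at a lower ratio than its partner, and the genes of 1 cluster did not share a ratio. Summed over the counts given to its genes, the chromosome 1 cluster was 1.79-fold higher in replicate 2 (log2 0.84, 95% exact interval 0.80 to 0.89). The chromosome 6 cluster was 1.05-fold higher (0.07, 0.05 to 0.08).

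**Figure D5:**
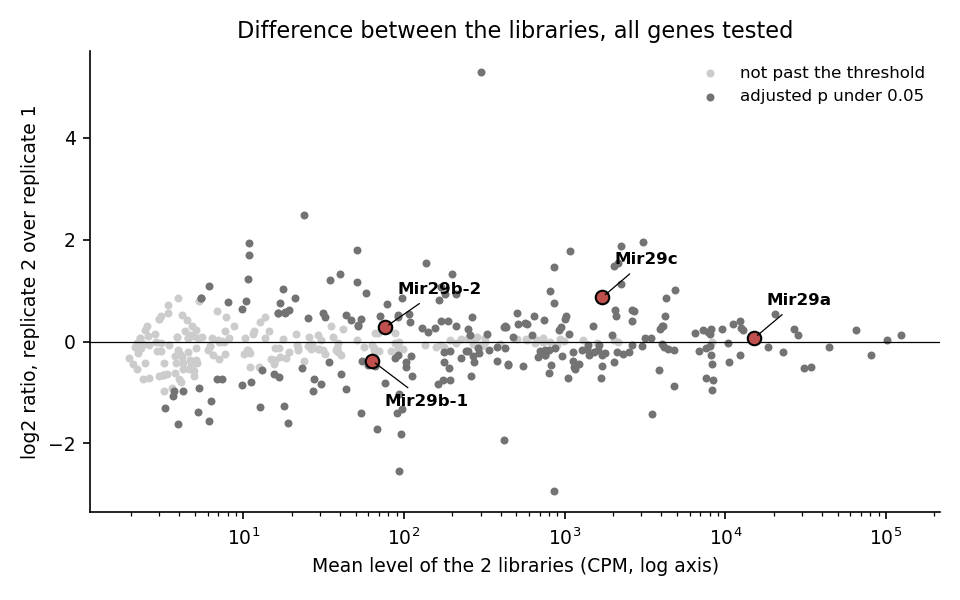
Log2 ratio of replicate 2 over replicate 1 against mean level in CPM (log axis) for the 420 genes tested, dark where the adjusted p by Fisher's exact test is under 0.05, with the 4 miR-29 genes in red. Mir29c stands at 0.87, Mir29b-2 at 0.28, Mir29a at 0.07 and Mir29b-1 at -0.37.

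Markers of cell types that hippocampal tissue holds were read beside these ratios. The neuronal Mir137 came to 8274 CPM in replicate 2 against 8278 CPM in replicate 1, and the activity-induced Mir132 to 24242 CPM in replicate 2 against 16627 CPM in replicate 1. The miR-124 genes, whose mature miRNA has 3 gene copies, had at most 13 counts. The oligodendrocyte pair summed to 6974 CPM in replicate 2 against 6526 CPM in replicate 1, but its genes went both ways, with Mir219a-2 higher in replicate 2 at a log2 ratio of 0.41 and Mir338 lower at -0.10, both past the threshold. The endothelial Mir126a passed as higher, at 0.27. Of the mural genes Mir143 passed as higher, at 0.15, and Mir145a did not pass, at -0.08. The 4 microglial and leukocyte genes summed to 1217 CPM in replicate 2 against 1126 CPM in replicate 1, a sum carried by Mir150, which passed as higher at 0.14. The other members, Mir142, Mir155 and Mir223, did not pass, at -0.21, -0.15 and -0.31, and the list's median was -0.18. The 3 red cell genes summed to 142.5 CPM in replicate 2 against 95.4 CPM in replicate 1, with Mir451a and Mir144 past the threshold as higher, at 0.75 and 0.62, and Mir486 not, at -0.07. No listed marker was at 0 in both libraries. Their part in the differences of the miR-29 genes was not tested. No astrocyte marker outside the miR-29 family was at hand.

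Of 20 genes tied to brain maturation, namely the let-7 family with Mir98, the miR-128 and miR-138 genes, Mir132 and the miRNAs of myelinating cells, all were tested, and 9 were higher and 9 lower in replicate 2, beside 27.1% higher and 29.8% lower among all genes tested. The other two, Mir219a-1 and Mirlet7f-1, missed the threshold. Some genes of the list have very high counts, at which the test passes small ratios. Mirlet7b, with 618730 counts in replicate 2, passed at a log2 ratio of 0.04. Over the list the median log2 ratio was 0.06, beside -0.07 over all genes tested. Mir29c, at 0.87, lay above every gene of that list, of which Mir132 was the highest at 0.54.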

How the data were processed

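The authors deposited 1 table of read counts per library over miRNA genes of mm10 and GENCODE M21, not normalized and not pooled, per the deposited notes. Aligner, counter and adapter trimming were not given in the sources used here. The columns are unnamed. From the values, the first holds unstranded, the second sense and the third antisense counts, and the second was used. Lines of reads given to no gene (multimapping, unmapped, outside genes: 48.4%, 11.2% and 3.69% of reads in replicate 2, and 45.9%, 11.8% and 3.60% in replicate 1) were left out of totals. Depth was 5979247 counts in replicate 2 and 4517648 in replicate 1, so a count of 0 allows 3 counts, 0.502 and 0.664 CPM.

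All 2202 identifiers matched GENCODE M21. Mature miRNAs came from RefSeq (GRCm38.p6), where all 4 genes matched and the hairpins equalled those of GENCODE. Fisher's exact test with Benjamini-Hochberg adjustment was run on genes with 10 or more counts in each library (scipy 1.17.1) and tried on simulated counts. Those counts held counting error alone, with no further spread between libraries, so they cannot show how the test behaves at the spread of these data. Shared stretches were searched in annotated hairpins only, since no genome was used here. TMM factors (edgeR 4.0.16) and DESeq2 1.42.0 size factors served as alternatives, with an exact binomial test. With 1 group there was no condition for a quasi-likelihood test. The genes named are the 4 members, the 2 genes nearest each in level, genes sharing 20 or more bases with a member, and those of the lists. The members and lists were chosen with earlier results of these data known.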

Additional observations from a re-analysis of the deposited data

How the results depend on the processing

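The ratios of the 4 miR-29 genes between the libraries kept their direction and stayed past the threshold in all 36 combinations with another scaling, column, count minimum, depth, pseudocount or denominator, between 0.07 and 0.14 for Mir29a, -0.37 and -0.31 for Mir29b-1, 0.26 and 0.35 for Mir29b-2 and 0.86 and 0.94 for Mir29c on the log2 scale. The largest adjusted p by Fisher's exact test or the exact binomial test was 0.013 for Mir29b-1 and 0.023 for Mir29b-2. Not all of these settings could move a member. The count minimum left its ratio unchanged and altered only the adjustment, and the pseudocount does not enter the test. Because these genes had no antisense reads, the other column changed only the totals. The family's share of 1.70% became 1.84% in the counts without regard to strand, 1.94% in a total without the most abundant gene and 0.639% of all reads, since these choices change the denominator. Leaving out a replicate leaves 1 library and no test. The chromosome 6 share then ranged from 87.1% to 92.1%, the Mir29b-1 share from 39.7% to 50.9% and the family share from 1.61% to 1.78%. Division by hairpin length, an alternative chosen after seeing the data, moved no share or ratio by more than the SD between libraries. No paired analysis was possible because the series has a single group. The Mir29b ratios rest on at most 500 counts a library and lack reads that match both copies.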
